A study of Mus musculus with 6 samples.

Results

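Clusters of neighbouring regions with Onecut3 FLAG peaks were described in mouse embryonic fibroblasts (MEFs), fibroblast cultures grown from embryos. Peaks of the 3 Onecut3 OE FLAG lists were merged where they overlapped by at least 1 bp, which gave 50844 regions. Of these, 5099 had a peak from each of the 3 lists on chromosomes 1 to 19 or X and are called shared regions. The members were chosen by the measured peak positions alone: a shared region was a member when its midpoint lay within 20 kb of the midpoint of another shared region, and neighbours were chained. This left 862 members in 406 clusters, or 16.9% of the shared regions (exact 95% binomial interval 15.89 to 17.96%), and 4237 lone shared regions. Since nearness chose the members, their number and spacing are given without a test.

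ChIP-Seq had been performed with the anti-FLAG M2 antibody on primary MEFs of the strain C57BL/6, in which 100 ng/mL doxycycline induced FLAG-tagged Onecut3 through a Retro-X Tet-One retroviral system. The 3 Onecut3 OE FLAG samples of the 6 in the series had the peak lists used here. The other 3 samples, which were FLAG ChIP from control cells without doxycycline and the input and IgG of Onecut3 OE cells, were not analysed here, and signal that the FLAG antibody gives without Onecut3 was therefore not subtracted. The labels do not say whether the replicates came from separate embryos or cultures, so the spread between lists may be technical, and the tagged Onecut3 came from a retroviral transgene. The identity of the cells could not be checked against fibroblast markers, since peak lists hold no expression values.

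Onecut3 belongs to the ONECUT family of transcription factors, which bind DNA through a CUT domain together with a divergent homeodomain and recognise sites built around the core ATCAAT or ATCGAT. Relatives of Onecut3 are best known for their part in liver, pancreas and neuron development. Neighbouring binding sites of a transcription factor often lie in the promoter and the enhancers of 1 gene, but the same spacing can join sites of different genes.

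Letters of the core were looked up in RefSeq promoter windows of build GRCm38.p6, which hold 250 bases before and 50 bases after a transcription start site (TSS). No genome sequence was used for members elsewhere. The 7 stretches shown here come from promoters of cluster members with a core before the TSS, so that the core can be read beside the summits of the peaks. They are the 6 such promoters with the highest mean fold, predicted Gm genes left out, and that of Hoxa2, at the largest cluster, and were picked after their values were seen. Each is written 5′ to 3′ in the direction of the gene, and capitals mark the core (ATCAAT, its reverse complement ATTGAT, or the palindrome ATCGAT).
Mlst8, chr17:24479079-24479134, minus strand: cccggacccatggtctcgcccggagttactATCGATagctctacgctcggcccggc
Prickle2, chr6:92481471-92481536, minus strand: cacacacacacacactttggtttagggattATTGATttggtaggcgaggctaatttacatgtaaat
Ip6k2, chr9:108783562-108783598, plus strand: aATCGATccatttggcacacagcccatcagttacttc
Tpi1, chr6:124814290-124814355, minus strand: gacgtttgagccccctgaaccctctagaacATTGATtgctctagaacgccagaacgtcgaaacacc
Slc25a17, chr15:81360888-81360953, minus strand: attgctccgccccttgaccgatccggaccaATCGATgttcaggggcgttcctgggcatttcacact
Snrpg, chr6:86371404-86371469, plus strand: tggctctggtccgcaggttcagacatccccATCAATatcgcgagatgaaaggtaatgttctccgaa
Hoxa2, chr6:52164907-52164972, minus strand: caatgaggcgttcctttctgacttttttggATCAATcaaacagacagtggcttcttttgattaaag

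In these promoters the middle of the core was 17.5 bases from the nearest summit at Mlst8, 1.5 at Prickle2, 67.5 at Ip6k2, 1.5 at Tpi1, 10.5 at Slc25a17, 1.5 at Snrpg and 4.5 at Hoxa2. The core of Ip6k2 was thus the farthest from the summits counted, but its list 3 summit lay outside the promoter window and was not counted. The others lay closer to a summit.

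The lists differed in size, with 31600 peaks in list 1, 12856 in list 2 and 24822 in list 3. Each peak carried the authors' fold, which is the ratio of the ChIP pileup at the summit to the background expected from the control, with 1 added to both. The number of reads is not in the lists, so the depth is unknown, and no interval that needs it is given. The floor of the background used below was recovered from fold and p for lists 1 and 3. Binomial intervals cover counting over regions only, and regions are not replicates of a condition. Members come only in groups, so an interval such as that of the share in clusters, which takes regions as independent, is too narrow.

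Most clusters were pairs. There were 364 clusters of 2 members, 35 of 3, 6 of 4 and 1 of 5, so that 728 members lay in pairs and 134 in the 42 clusters of 3 or more. The 456 gaps between consecutive members had a median of 8.30 kb and ran from 0.447 to 19.97 kb, and 154 of them (33.8%) were 5 kb or less. Clusters spanned 0.818 to 40.3 kb, with a median of 9.43 kb. In 288 clusters no region with a peak in only 1 or 2 lists lay between the members, and in 118 at least 1 did.

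Shared regions had a neighbour more often where they lay than after their midpoints were moved along the chromosome by fixed offsets of 0.2 to 5 Mb in both directions. Moved positions had a shared region within 20 kb in 10.1% of cases on average, from 8.54% at +5 Mb to 11.9% at -0.2 Mb, beside the 16.9% measured in place, a ratio of 1.67. The moved share was highest at the smallest offsets (11.9% and 11.8% at 0.2 Mb) and fell with distance on both sides, so nearness extended, more weakly, over much longer distances than 20 kb. Against offsets of 1 Mb or more alone the ratio was 1.83.

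**Figure D1:**
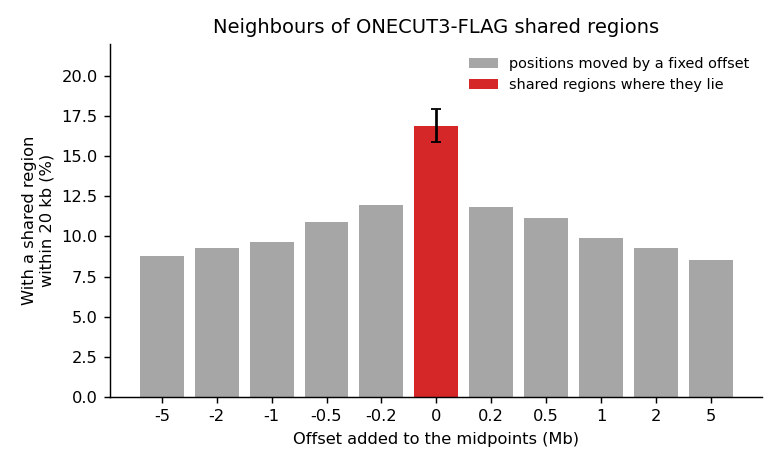
Bars give the percent of positions with a shared region within 20 kb (y axis) against the offset in Mb added to the midpoints (x axis). The error bar on the bar at 0 is the exact 95% binomial interval, which takes regions as independent and is thus too narrow. The bar at 0 stands at 16.9% and the 10 moved bars between 8.54 and 11.9%, highest beside the centre.

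The excess was also present in every list on its own, though smaller in the longer lists. The longer lists also held a lower share of peaks with q of at most 0.05: 33.6% in list 1 and 47.7% in list 3, against 71.0% in list 2. Peaks of list 1 had an own neighbour within 20 kb in 50.1% of cases in place and 40.9% after moving, a ratio of 1.23. List 2, the shortest, gave 33.9% against 21.5%, a ratio of 1.57. List 3 gave 44.3% against 34.8%, a ratio of 1.28. The mean ratio was 1.36 ± 0.188 (SD, n = 3). Regions with a peak in exactly 2 lists gave 21.3% against 14.2% (ratio 1.50), and those in 1 list 53.6% against 46.3% (ratio 1.16). The ratio was thus highest for regions present in all 3 lists, and these values are given as a description, since the sets differ in density.

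Per kb of separation, pairs were most frequent at the shortest range. Pairs of shared regions were counted by their separation, whether consecutive or not. There were 35 pairs separated by up to 1 kb and 40 by 1 to 2 kb, with counting errors (square root of the count) of 5.92 and 6.32. Pairs then numbered 27.3 per kb of separation at 2 to 5 kb, 23.0 at 5 to 10 kb and 21.9 at 10 to 20 kb. These last bins are wider and held 115 and 219 pairs. Beyond the limit used for clusters the number went on falling slowly, from 21.7 per kb at 20 to 50 kb to 13.2 at 1000 to 2000 kb. At 20 kb the curve showed no step: the rate just inside (21.9 ± 1.48) and just outside (21.7 ± 0.850) differed by less than the counting error. When shared regions under 1 kb apart were joined into 1, 761 members in 360 clusters were left, and the ratio to moved positions was 1.49.

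**Figure D2:**
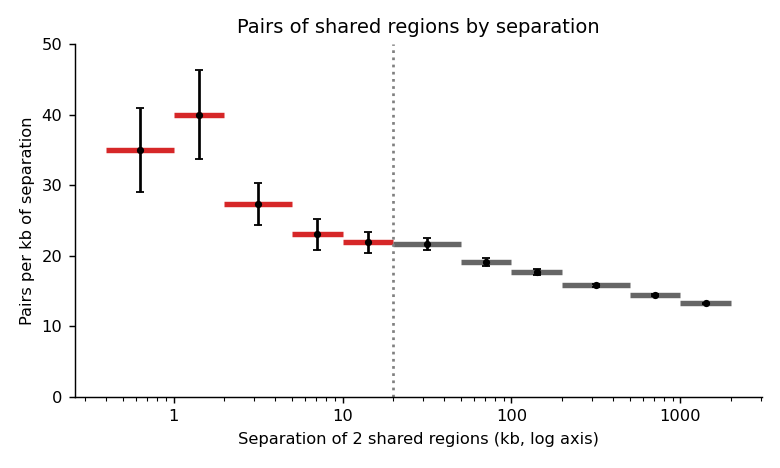
Pairs of shared regions per kb of separation (y axis) against their separation in kb (log x axis); horizontal bars are the bins, the first of which holds 0 to 1 kb, points carry the counting error, and the dotted line is the 20 kb limit. The rate is 35 to 40 in the first 2 bins, about 22 on both sides of the limit and 13.2 at the right end.

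All 20 chromosomes had a ratio above 1, with a median of 1.59, and on 16 of them the share in place was above that at every offset. Chromosomes 8 and 19 held 25.4% of the members but 12.1% of the lone regions. On chromosome 8, 107 of 359 shared regions (29.8%) were members, against 12.2% after moving, a ratio of 2.45. On chromosome 19, 112 of 372 (30.1%) were members, against 23.1%, a ratio of 1.30. The share was thus alike on both, while the moved share was higher on chromosome 19, which carried 6.43 shared regions per Mb against 2.87 on chromosome 8. Chromosomes 14 and 16 had high ratios at moderate density: 34 of 170 shared regions were members on the former, 3.37 times the moved share of 5.94%, and 20.7% on the latter against 6.20%, a ratio of 3.34. On chromosome 18 the share in place, 7.20%, lay among the moved ones (4.88 to 8.20%), and chromosome X had 4 members among 60 shared regions. Without chromosome 19 the ratio was 1.74, and without chromosomes 8 and 19 it was 1.66 with 643 members.

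**Figure D3:**
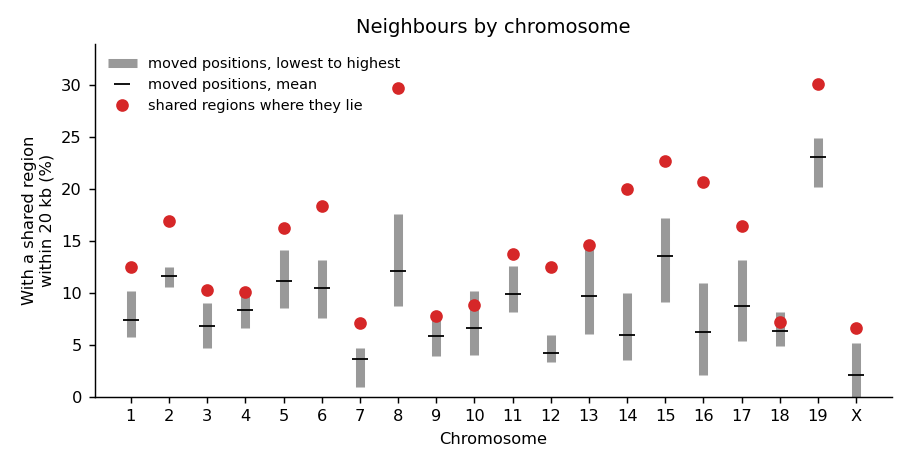
Percent of shared regions with another within 20 kb (y axis) for each chromosome (x axis); dots are the regions in place, grey bars run from the lowest to the highest of the 10 moved positions, and dashes are their means. Dots lie above the grey bar on 16 of 20 chromosomes, with the highest dots at chromosomes 8 (29.8%) and 19 (30.1%).

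Members were spread over many megabases. The Mb with the most, from 34 Mb of chromosome 8, held 14 of the 862 members in 6 clusters, and the one from 34 Mb of chromosome 19 held 13 in 6. The next, from 25 Mb of chromosome 15, held 8 in 4.

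The largest cluster lay at Hoxa2 and Hoxa3, homeobox genes that pattern the hindbrain and neural crest. Its 5 members spanned chr6:52161482-52182067, or 20586 bp. The first member, 2.998 kb downstream of the Hoxa2 TSS, had folds of 5.64, 5.45 and 4.05 in lists 1, 2 and 3. The second, whose midpoint lay 0.0025 kb from the Hoxa2 TSS and which holds the core printed for Hoxa2, had 4.33, 3.29 and 3.85. The third, inside Hoxa3 at 9.83 kb from the first, had 4.31, 3.38 and 4.14. The last members, inside Hoxa3 at 17.5 and 19.9 kb, had 3.26, 2.99 and 3.31, and 3.41, 3.29 and 4.12. Lists 1 and 2 gave the highest fold to the first member and list 3 to the third.

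The 6 clusters of 4 members stood mostly away from genes. At 13.5 kb from Sgms1, which makes sphingomyelin, 4 members spread over 32.2 kb of chromosome 19. The member 24.9 kb from the first was the strongest in every list, with folds of 6.71, 6.28 and 5.70, and the member at 13.5 kb the weakest, with 3.63, 3.67 and 3.42. The 4 members 83.4 kb from Rab11fip2, an effector of recycling endosomes, had their lowest folds in the last member, 2.68, 3.48 and 2.30. In Aopep, an aminopeptidase gene on chromosome 13, the 4 members lay within the gene body with folds of 3.03 to 5.11. The other clusters of 4 were 6.94 kb from Gask1b (folds 2.12 to 5.73), 283 kb from Dusp4, a phosphatase of MAP kinases (2.58 to 5.07), and 112 kb from Myo16, a myosin gene (2.87 to 6.05). None of the members of these last 3 clusters lay in or within 3 kb of a protein-coding gene.

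**Figure D4:**
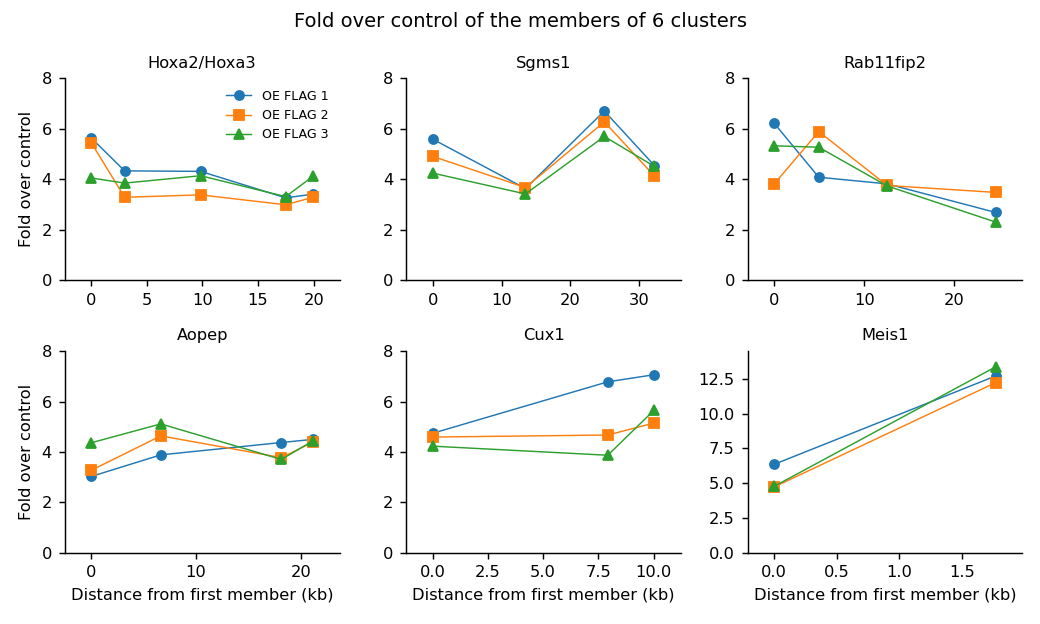
Fold over control (y axis, own scale for Meis1) of each member against its distance in kb from the first member of the cluster (x axis), for 6 clusters; colours and symbols are the 3 Onecut3 OE FLAG lists. The lists follow each other closely near Sgms1 and Meis1, and at Hoxa2/Hoxa3 all values lie between 2.99 and 5.64.

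Clusters of 3 with the highest mean fold lay in or near Slit1, Stambpl1, Fads1, Sdc4, Cux1, Tpi1, Gm815 and Ptgis. In Slit1, an axon guidance ligand gene, 3 members within 4.05 kb had folds of 10.5, 8.47 and 7.46, of 6.31, 7.72 and 10.5, and of 3.58, 4.91 and 4.55. List 1 thus put the first member on top and list 3 the second. Around Stambpl1, a deubiquitinase gene, the middle member was the strongest in every list (7.65, 8.69 and 7.36). In Cux1, a gene of the CUT homeobox family to which Onecut3 also belongs, the member 0.526 kb from a gene end had 7.06, 5.15 and 5.67 and was the strongest in every list.

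The cluster that spanned Tpi1, a glycolysis gene, ran on to Cdca3, a gene of mitotic entry. Its member at the Tpi1 promoter, with the core printed for that gene, had folds of 3.76, 5.80 and 5.41, and the one at a Cdca3 end 4.08, 2.99 and 3.99. The strongest of the 3, with 6.66, 7.08 and 6.05, lay 2.56 kb from a gene end. In Sdc4, a heparan sulfate proteoglycan gene, the strongest member had 7.77, 5.02 and 9.30 in lists 1, 2 and 3, and list 2 put another member slightly higher (5.22). Folds were 3.38 to 6.69 near Fads1, a fatty acid desaturase gene, 3.27 to 7.13 near the predicted gene Gm815, and 2.73 to 6.68 near Ptgis, the prostacyclin synthase gene.

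By mean rank of fold the first 10 clusters lay in or nearest to Creb3l2, Rnf24, Ccn6, Meis1, Hsp90ab1, Stambpl1, Rasgrf1, Ppp6r2, Camk1d and Creb3l1. At Creb3l2, a membrane-anchored transcription factor of the secretory pathway, the members lay 1.03 kb apart with folds of 7.87, 6.96 and 9.23, and of 6.82, 6.26 and 6.55. Creb3l1, a relative of Creb3l2, had members 19.7 kb apart, 1 inside the gene (5.10, 7.24 and 5.13) and 1 at its end (5.15, 8.07 and 4.60). At Meis1, a TALE homeobox gene, the folds were 6.36, 4.73 and 4.78 for 1 member and 12.7, 12.2 and 13.4 for the other, the highest fold of any member in all 3 lists. Lone regions reached 22.7, 18.9 and 20.7.

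The other leading pairs differed in how even they were. The members near Rnf24, which encodes a RING finger protein, had folds of 5.45, 5.57 and 6.05, and of 9.93, 9.18 and 8.28, so that every list put the second higher. Those at Ccn6, a gene of the CCN family of matricellular proteins, lay 0.547 kb apart with 7.87, 8.90 and 5.73, and 7.27, 6.96 and 4.78. Near Hsp90ab1, a cytosolic chaperone gene, the folds were 6.96, 7.24 and 8.60, and 5.66, 6.30 and 4.39. Folds ran from 4.56 to 7.24 near Rasgrf1, from 4.43 to 7.88 at Ppp6r2 and from 4.78 to 7.24 in Camk1d. When only peaks with a fold of at least 5 were kept, 8 regions in 4 clusters were left, at Stambpl1, Slit1, Rnf24 and Creb3l2, and a -log10 q of at least 5 left the same 4.

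Members and lone regions had nearly the same median folds. Median folds in lists 1, 2 and 3 were 3.94, 4.18 and 4.14 for members and 3.94, 4.18 and 4.05 for lone regions, and median widths were 402 and 392 bp. A q of at most 0.05 in all 3 lists was reached by 508 members (58.9%) and 2399 lone regions (56.6%), against 57.0% of all shared regions. The ChIP pileup, recovered from fold and p for lists 1 and 3, had a median of 14 fragments for members in both lists, and 14 and 13 for lone regions.

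The background expected from the control was above its genome-wide floor more often at members: 54.9% against 47.0% of lone regions in list 1, and 54.9% against 46.6% in list 3. Without chromosome 19, where 88.4% of shared regions were above the floor in list 1, these values were 49.7% against 44.3%, and 49.5% against 43.8%. A background of at least 3 times the floor in both lists was found at 21 members (2.44%) and 58 lone regions (1.37%). In 6 clusters with 14 members this held for every member. The highest was on chromosome 9 at 124256357 to 124257888, with a background of 117 in list 1 and 107 in list 3 and folds of only 1.34 to 1.63. Another, at Gm51571 and Gm51572 on chromosome 8, had backgrounds up to 28.2 and 25.9 and folds of 1.82 to 3.78. Without all such regions 835 members in 394 clusters were left with a ratio to moved positions of 1.65. What else the background contributed was not tested.

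To use a list that the choice of members had not seen, clusters were built from 2 lists and looked up in the list left out. With list 1 left out, 76.9% of cluster members and 76.2% of lone regions of the other lists had a peak in it. With list 2 left out the values were 57.8% and 52.8%, and with list 3 left out 71.5% and 69.8%. Members were found again more often in 3 of 3 cases, by 2.46 ± 2.22 percentage points (SD, n = 3), but an exact two-sided sign-flip permutation test gave p = 0.25, the smallest p that 3 lists allow. The 3 comparisons reuse the same lists and are not independent, which neither the SD nor the test takes into account.

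The order of strength within a cluster was the same in all 3 lists for part of the pairs, about as often as for lone regions. Agreement of all 3 lists is a strict measure, and a tie in any list counted against it, so the share is not read as poor agreement. Of the 364 pairs, 174 (47.8%, interval 42.6 to 53.1%) had the same stronger member in all 3 lists. Of 887 consecutive pairs of lone regions 20 to 100 kb apart, 403 (45.4%, interval 42.1 to 48.8%) did. The stronger member of a cluster exceeded the weaker by a median factor of 1.23 in mean fold, and the stronger lone region its neighbour by 1.23. Mean folds of paired members were hardly related, with a Spearman rho of 0.0505 over the 364 pairs and 0.0302 over the lone pairs, all from the same 3 libraries.

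Regions with a peak in only 1 or 2 lists, which had no part in the choice of members, lay within 20 kb of 625 members (72.5%, interval 69.4 to 75.5%) and of 2789 lone regions (65.8%, interval 64.4 to 67.3%). Positions moved from members had one in 57.5% of cases and positions moved from lone regions in 52.6%. The share in place was thus 1.26 times the moved one for members and 1.25 times for lone regions.

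Members lay at gene ends about as often as other shared regions did. A midpoint 3 kb or less from a start or end of any protein-coding gene was found for 145 members (16.8%, interval 14.4 to 19.5%) and 783 lone regions (18.5%, interval 17.3 to 19.7%), against 18.2% of all shared regions. Another 374 members (43.4%) lay elsewhere inside a gene and 343 (39.8%) between genes, beside 39.0% and 42.5% of lone regions. Exons and introns were not told apart, since the gene table used holds only the ends of genes.

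Of the 406 clusters, 171 lay with all members inside 1 gene, 143 had no member in or at a gene, and 92 were of other kinds. Gene ends were reached by at least 1 member in 100 clusters and by all members in 37. The 166 genes that held a whole cluster had a median length of 164 kb, against 17.3 kb for all 21627 protein-coding genes in the table. Lengths were not matched, and a longer gene has more room for a whole cluster, so the choice of genes favoured the direction of this contrast. Short genes such as Ints5 held a whole cluster as well. In all, 388 genes held at least 2 members of 1 cluster within the gene body extended by 20 kb on both sides, which is 1.79% of genes, with a median length of 44.9 kb. Counted over all clusters, most members within the extended body were found at Psd3, a long gene on chromosome 8 (6, at most 2 of 1 cluster). Cdk14 and Prkg1 had 5 each, at most 3 of 1 cluster. Hoxa2 and Hoxa3 also had 5 each, which were the same 5 members of 1 cluster.

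Lists of genes were counted against that 1.79%, without a test, since the lists were drawn up with results of these data known and differ in gene length. Of 65 homeobox transcription factor genes, 6 (9.23%) held a cluster, led by Cux1, Meis1, Zeb2 and Tshz2. Hoxa2 and Hoxa3 were not on that list. The mean folds of the members at these genes were 5.20 at Cux1, 9.03 at Meis1, 4.50 at Zeb2 and 4.26 at Tshz2.

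Signalling lists followed. Of 27 Hippo pathway and TEAD genes 3 (11.1%) held a cluster: Wwc2, with 3 members, and the kinase gene Stk4 and the tumour suppressor gene Nf2, with 2 each. Of 38 TGF-beta and BMP genes 3 (7.89%) did: the co-receptor gene Tgfbr3 (mean fold 5.12) and the ligand genes Tgfb3 (5.05) and Bmp7 (4.40). Of 30 AP-1 and immediate early genes 1 did, the ERK phosphatase gene Dusp5 (5.12), and of 47 fibroblast and matrix genes 1, the collagen receptor gene Ddr2 (4.92). These last shares, 3.33% and 2.13%, stood near the 1.79% of all genes.

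Tpi1 and Hsp90ab1 held a cluster among 28 highly transcribed housekeeping genes (7.14%), and Rps23 and Rps18 among 31 cytosolic ribosomal protein genes (6.45%). None was found at 28 hepatocyte, 28 neuronal, 20 blood cell or 33 DNA replication genes. With 1.79% of all genes holding a cluster, lists this short can easily hold none, so no absence is read from them. Among 40 genes of the chromosomal passenger complex and mitosis, 1 held a cluster (2.5%, near the 1.79% of all genes). It was Kif11, a spindle motor gene, with a mean fold of 3.57. Cdca3, Mastl, Mis12 and Mad1l1, which also act in mitosis and held 2 members each, were not on that list. These were named because they held a cluster. Mitosis genes off the list without a cluster were not counted, so no share is read from them.

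The chromosomal passenger complex genes themselves lay outside the clusters. Incenp, its scaffold, had shared regions with folds of 7.41, 7.80 and 9.58 and of 6.64, 5.11 and 7.0, but these were 21.5 kb apart and hence just over the limit. Aurkb, the kinase of the complex, had 1 lone shared region within 20 kb, and Cdca8 (borealin) and Birc5 (survivin) had no shared region there. A shared region needs a peak in every list, and regions short of that were not counted at these genes. The paper reports ChIP-Seq binding of Onecut3 at Incenp and within Cdca8, so no absence of binding is read from these counts. Other pairs near the limit were at 19972 bp near Tomm20, 19933.5 bp near Gm51591 and 19862.5 bp at Gucy2g on the inside, and at 20074 bp near C1qtnf3, 20130.5 bp at Stk4 and 20258.5 bp near 1700016C15Rik on the outside. Folds were 2.42 to 8.41 in the pairs inside and 2.42 to 6.98 in those outside.

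A summit in a promoter window was found for 31 of 853 members (3.63%) and 238 of 4121 lone regions (5.78%). Chromosome 18, where 9 members lie, was left out of these counts, since the promoter table used here has no window on it. Of these, 14 of 31 members (45.2%, interval 27.3 to 64.0%) and 123 of 238 lone regions (51.7%, interval 45.1 to 58.2%) had the ONECUT core in the window on either strand. Counted by window, the core was in 15 of 36 windows with a summit of a member (41.7%), in 49.5% of those of lone regions and in 8.40% of all 32851 windows. The core lay within 50 bases of a summit in 13 of the 14 members and in 118 of the 123 lone regions, with a median distance of 7.5 bases in both. Only summits inside a window were counted, which bounds these distances. The exception among members was Ip6k2, an inositol phosphate kinase gene, at 67.5 bases. Its core lay at the edge of the window and its list 3 summit outside it, so the distance to that summit is not known here.

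**Figure D5:**
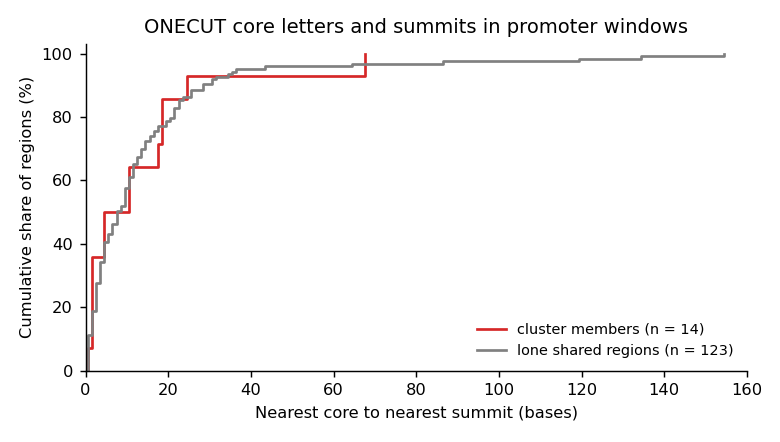
Cumulative percent of regions (y axis) against the distance in bases from the nearest ONECUT core letters to the nearest summit (x axis), for cluster members and lone shared regions with a summit and a core in a promoter window. Both curves rise steeply, with a median of 7.5 bases in each, and the members end at 67.5 bases.

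Other letters were counted in the same windows. The AP-1 site TGANTCA was in 2.78% of windows of members (1 of 36), 5.96% of those of lone regions and 7.81% of all windows. CCAAT, searched on both strands and free to overlap the core, was in 72.2%, 65.6% and 37.4%. Like the core, it was thus more frequent in windows with a summit than in all windows. These are matches of letters, not measured sites, and the set of all windows includes those of genes with no shared region.

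Promoter members came from genes of many kinds. The strongest was at Mlst8, a subunit of the mTOR complexes, with folds of 8.43, 7.62 and 7.99. Prickle2, a planar cell polarity gene, had 5.04, 7.35 and 5.30 and Slc25a17, a peroxisomal carrier gene, 4.49, 4.83 and 5.21. Snrpg, a core protein of spliceosomal particles, had 5.78, 4.05 and 2.85, so that list 1 stood above the others. Among members without the core in the window, Hspa5, the chaperone BiP of the endoplasmic reticulum, had 6.06, 5.29 and 5.41. Mastl, the Greatwall kinase gene of mitotic entry, had 5.88, 4.90 and 4.51. A member between the start sites of Mis12, a kinetochore gene, and Derl2, a gene of protein degradation at the endoplasmic reticulum, had 4.83, 5.31 and 3.13.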

How the data were processed

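ChIP-Seq peak lists of the 3 Onecut3 OE FLAG samples were used. Tools in the submitters' processing notes were MACS2 2.1.0, Bowtie2 2.2.6 and deepTools 3.3.2, with build GRCm38. MACS called the peaks, per sample and with the input as control as far as peak names show. The deposited lists give the authors' fold (the ratio of pileup to expected background), q-value and p-value as -log10, and a score derived from p. The fold and p-value of lists 1 and 3 were solved for pileup and Poisson background (tolerance 0.001 in -log10 p, 100.0% of peaks). List 2 could not be solved. Peak number and fold depend on depth and background, so folds were compared within lists.

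Peaks were merged, chained and compared with positions moved by 10 fixed offsets. The left-out list was compared by an exact permutation test. Gene ends and promoter windows came from RefSeq (GRCm38.p6), the former for 21627 protein-coding genes without strand. Named genes were those at the 15 largest clusters (ties by mean fold) and the 10 highest by mean rank of fold, up to 4 members of each gene list, Incenp, Cdca8, Aurkb and Birc5, and 3 pairs on each side of 20 kb. Promoter members and genes with the most members were named after their values were seen. Members, rules and gene lists were chosen with earlier results of these data known. Alternatives were other distances, overlaps and thresholds, each replicate left out, regions under 1 kb apart joined, and other windows and offsets. Leaving out chromosome 19 was planned, and leaving out chromosome 8 as well, or regions of high background, was chosen after seeing the data. Scripts were tested on simulated data. Software was scipy 1.17.1, pandas 2.3.3, numpy 2.4.6 and matplotlib 3.10.9 under Python 3.11.15. A detail of the cells' genotype is not reported here.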

Additional observations from a re-analysis of the deposited data

How the results depend on the processing

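The number of members follows the rules for peaks and distance, since these decide which regions count, while the ratio to moved positions stayed above 1 in all 16 alternatives tried for it. Of 133 recomputed values, 66 stayed within 1.5 times the count, within the error of the reported value or, for recurrence, in direction. A distance of 10 kb gave 520 members (10.2%) in 254 clusters, 9 of 3 or more, a ratio of 1.90 and 54.4% with a region of 1 or 2 lists nearby. With 50 kb these were 1706 (33.5%), 735, 172, a ratio of 1.52 and 93.4%. With q of at most 0.05 there were 323 members (11.1%) in 152 clusters, 17 of 3 or more, with 54.2% beside a region short of 3 lists and 21.4% at gene ends. A -log10 q of at least 5 left 8 (1.68%) in 4 clusters, 0 of 3 or more, a ratio of 1.37, the same stronger member in 75% and 25% at gene ends. A fold of at least 5 also left 8 (1.77%) in 4 clusters, 0 of 3 or more, with a ratio of 1.27, 50% beside a region short of 3 lists, 75% and 25%, and recurrence in the list left out reversed to -0.0343 percentage points (SD 17.2, exact permutation p = 1), with fewer regions left to compare. Reciprocal overlap of 50% gave 565 members (14.1%) in 269 clusters, 25 of 3 or more, and summits within 100 bp 467 (12.9%) in 223, 19 of 3 or more, with 19.7% at gene ends. Joining regions under 1 kb apart gave 15.1% in clusters, leaving out chromosome 19 gave 15.9%, and leaving out chromosomes 8 and 19 gave 14.7%, with 25 clusters of 3 or more and 69.2% beside a region short of 3 lists. Windows of 1 and 10 kb put 9.74% and 29.7% of members at gene ends. Leaving out 1 replicate gave 1436 to 2361 members (21.5 to 25.1%) in 665 to 1065 clusters, 89 to 186 of 3 or more, with 55.6 to 68.5% beside a region short of a list, 60.2 to 63.4% with the same stronger member in both lists left (agreement of 2 lists being easier to reach than of 3), ratios of 1.51 to 1.70 and 14.8 to 16.8% at gene ends. The highest counts came without replicate 2, the shortest list. No paired analysis was possible because only 1 group has peak lists. Depth is unknown, and signal of the FLAG antibody in control cells was not subtracted.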
